A study of Mus musculus with 8 samples.

Results

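Chromatin accessibility was examined at 10 genes of fibroblast growth factor (FGF) signalling and of the feedback that the Erk kinases set on it: the ligand gene Fgf4, the receptor genes Fgfr1 and Fgfr2, the feedback inhibitor genes Spry2, Spry4 and Spred1, the phosphatase genes Dusp4 and Dusp6, and the target transcription factor genes Etv4 and Etv5. The members are ATAC-seq peaks of 201 bp whose centre lay inside the span of one of these genes or within 50 kb of it on mouse build GRCm38, 168 of 134407 peaks in all. A peak counted as a gene's own where no other protein-coding gene lay nearer, which left 130 own peaks; the other 38 were nearer to a neighbouring gene and are reported as such. The series holds 4 control and 4 paused libraries of wild-type E14 mouse embryonic stem cells, each prepared from 50000 live cells. E14 is an established line, and all cells were grown on gelatin in medium with serum and leukaemia inhibitory factor (LIF). The paused cultures also held INK128, which blocks the kinase mTOR, at 200 nM for 24 h; the control cultures had no inhibitor. The labels do not say whether the 4 libraries of a group came from separate cultures, so that p-values measure the spread between these libraries, which may be technical.

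FGF ligands bind receptor tyrosine kinases, which signal through Ras, Raf and Mek to the Erk kinases. In embryonic stem cells FGF4 is made by the cells themselves, and Erk activity driven by it is known for moving cells out of the naive pluripotent state. Active Erk induces its own inhibitors: Sprouty and Spred proteins act upstream at Ras and Raf, and the phosphatases Dusp4 and Dusp6 remove the activating phosphates from Erk. Etv4 and Etv5 are transcription factors of the ETS family whose genes are standard readouts of FGF signalling.

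ATAC-seq measures open chromatin by the insertions of the Tn5 transposase. Values here are reads per peak divided by the authors' scaling factor for each library, called scaled reads below. The libraries held from 4434037 to 21161767 reads in peaks, with control replicate 1 the deepest and the median peak at 91 reads there and at 18 to 29 reads in the others. In bulk samples, fewer cells with an open site and a less open site in each cell cannot be told apart. All 8 embryonic stem cell marker genes checked, among them Pou5f1, Sox2 and Nanog, had a peak within 2 kb of a gene end, with summed values from 2170.1 to 2366 scaled reads in control and from 2486 to 2778 in paused libraries. Peaks were also found at 5 of 5 fibroblast, 3 of 4 primitive endoderm, 2 of 3 neural and 2 of 3 blood marker genes. Their summed values were 422 to 533 against 504 to 544 for fibroblast, 323 to 379 against 344 to 399 for primitive endoderm, 435 to 467 against 449 to 554 for neural and 187 to 216 against 173 to 213 for blood markers (control against paused). The part of other cell types in the results below was not tested.

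At 3 of the genes the peak next to the start could be read as sequence, because it lay inside the promoter that RefSeq gives for GRCm38.p6; promoter entries were matched for 6 of the 10 genes. These sequences are shown because they are the strongest peaks of Fgf4, Dusp6 and Etv5, and none of them passed the test of change below. They are written 5′ to 3′ in the direction of the gene; the Dusp6 stretch is the part of its peak before the gene start, and the other stretches are whole peaks. Capitals mark matches, on either strand, to GGGCGG (the GC box bound by Sp1) and CCAAT (the box bound by NF-Y), 2 motifs chosen after the sequences were seen. The first is from chr7:144861177-144861377 (plus strand), the second from chr10:99263071-99263230 (plus strand) and the third from chr16:22439606-22439806 (minus strand).
Fgf4: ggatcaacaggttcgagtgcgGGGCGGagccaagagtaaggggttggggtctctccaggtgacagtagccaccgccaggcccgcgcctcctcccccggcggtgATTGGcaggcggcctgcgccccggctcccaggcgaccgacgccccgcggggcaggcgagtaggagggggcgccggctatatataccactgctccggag
Dusp6: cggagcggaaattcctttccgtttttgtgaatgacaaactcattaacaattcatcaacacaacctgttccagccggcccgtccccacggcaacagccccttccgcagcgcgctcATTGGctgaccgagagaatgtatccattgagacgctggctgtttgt
Etv5: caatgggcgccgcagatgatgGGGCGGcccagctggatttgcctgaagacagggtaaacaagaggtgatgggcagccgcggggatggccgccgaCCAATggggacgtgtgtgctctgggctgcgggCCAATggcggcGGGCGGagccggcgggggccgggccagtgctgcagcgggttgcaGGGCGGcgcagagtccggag

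The Fgf4 and Etv5 stretches had a G and C content of 71.1%, and the Dusp6 stretch one of 52.5%. Etv5 held 3 GC boxes and 2 CCAAT boxes, Fgf4 held 1 of each, and Dusp6 held 1 CCAAT box and 0 GC boxes. Of all 32851 promoter entries of 300 bp, 35.7% held GGGCGG and 37.4% held CCAAT. Matches to CCGGAA (the ETS core), TGACGT (the core of the cAMP response element) and CACGTG (the E-box) on either strand were found in 14.9%, 7.51% and 7.15% of all promoters. Among the 7 promoter entries of the member genes, CCGGAA was found in that of Spry2, CACGTG in that of Fgfr2 and TGACGT in 0. A match is a run of letters and no measure of binding.

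The first comparison asked, gene by gene, whether accessibility around each gene differed between paused and control cells. The values of all own peaks of a gene were summed in each library, and log2(sum + 1) was tested with limma over the 18182 protein-coding genes with a mean sum of at least 10, with Benjamini-Hochberg adjustment over all of them. The summed signal was higher in paused cells at Fgf4, Spry2, Spred1 and Dusp6 at an adjusted p under 0.05, and lower at 0 of the 10 genes. Among all genes tested, 31.2% were called, 29.8% higher and 1.40% lower, and the median log2 change was 0.15. The 4 calls are to be read against that background and that shift, and Fgf4, Spred1 and Dusp6 lost their call under at least 1 other scaling, as given below.

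**Figure D1:**
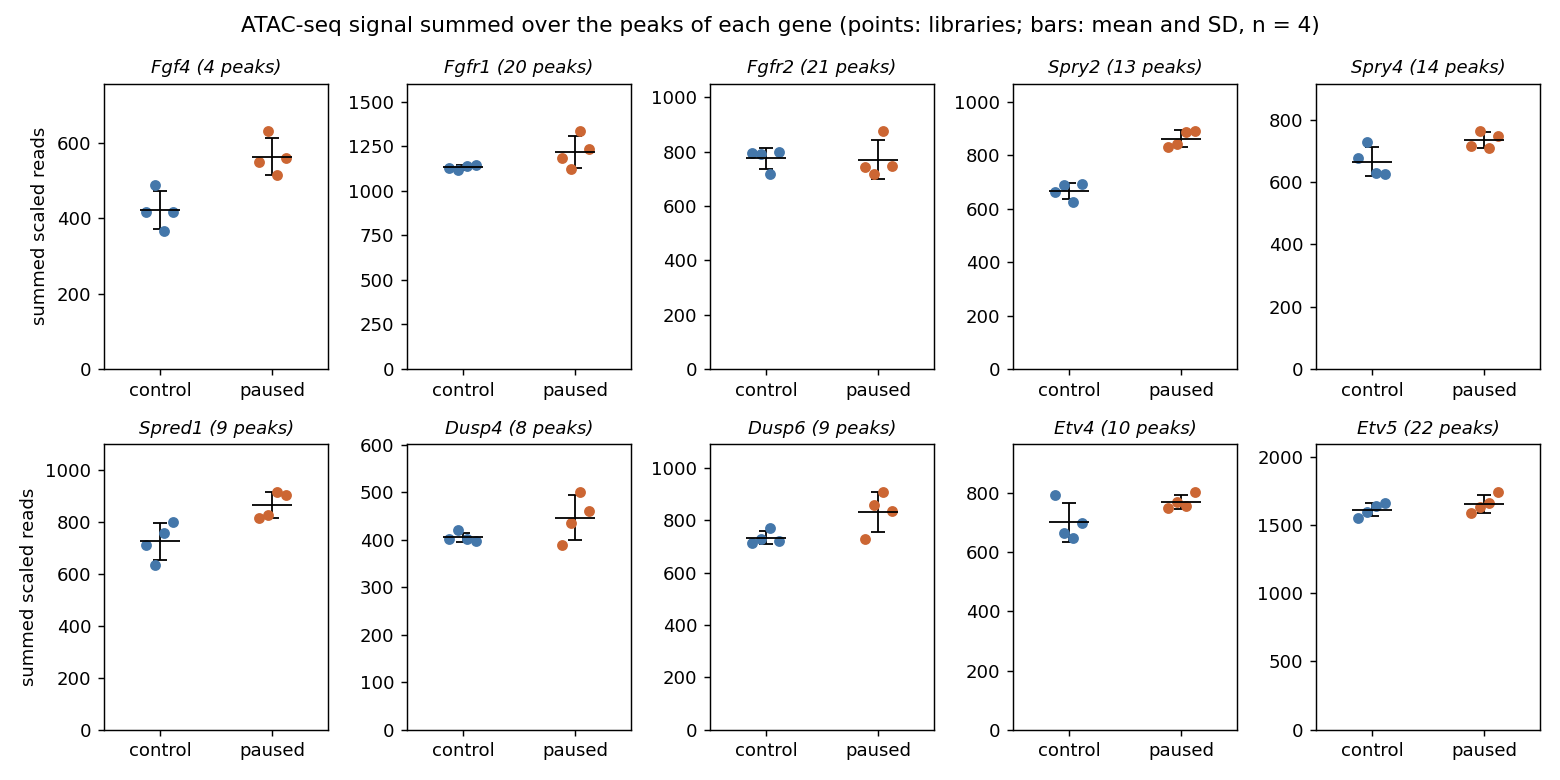
Scaled reads summed over the own peaks of each gene, 1 panel a gene, with control and paused libraries side by side (points are libraries, bars are the mean and SD, n = 4 a group, each vertical axis starts at 0). The groups do not overlap at Fgf4, Spry2 and Spred1, while at the other 7 genes they do. The Spry4 sum leaves out a stronger peak near an end of the gene, counted to Arhgap26.

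For Fgf4, the ligand gene, the sum over 4 peaks was 418, 487, 366 and 416 scaled reads in control replicates 1 to 4 and 550.2, 631, 514 and 559 in paused replicates 1 to 4. Every paused library lay above every control library, a separation upwards that 25.7% of all tested genes showed (1.60% were apart downwards). The log2 change was 0.42 (SE 0.08, limma adjusted p = 0.000525), or 0.28 after the median of all genes was subtracted, and the mean sum was 33.6% higher. The call was lost after loess correction for peak strength, with a change of 0.23 (adjusted p = 0.0662).

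For Spry2, which encodes a Sprouty inhibitor of Ras activation, the sum over 13 peaks was 662, 688, 627 and 692 in control and 829, 841, 889 and 890.4 in paused libraries. The groups lay far apart, with an SD of 30.2 and 31.9 around means of 667 and 862. The log2 change was 0.37 (SE 0.06, limma adjusted p = 7.95e-05), and 0.22 above the median of all genes. Spry2 was the only 1 of the 10 sums called in all 15 alternatives tried for the sums (scalings, pseudocount, window, neighbour rule, block and left-out libraries), with a highest adjusted p of 0.0141.

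For Spred1, which encodes a membrane-bound inhibitor of Raf activation, the sum over 9 peaks was 711, 635, 757 and 802 in control and 817, 828, 917 and 904 in paused libraries. The paused libraries lay above the controls, by little at the nearest pair. The log2 change was 0.26 (SE 0.07, limma adjusted p = 0.00586). It was 0.15 after TMM scaling (adjusted p = 0.136), 0.10 with libraries scaled to their total of reads (adjusted p = 0.323) and 0.08 after the loess correction (adjusted p = 0.464).

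For Dusp6, the gene of the Erk phosphatase that is itself induced by Erk, the sum over 9 peaks was 715, 727, 770.5 and 723 in control and 729, 859.6, 909 and 838 in paused libraries. Paused replicate 1 lay within the controls and the other 3 above them. The log2 change was 0.18 (SE 0.07, limma adjusted p = 0.0367), 0.03 above the median of all genes, and 0.07, 0.02 and 0.00 under the other 3 scalings (adjusted p = 0.496 to 0.993). The call was also lost without control replicate 1, 2 or 4 or paused replicate 2, 3 or 4, with adjusted p from 0.061 to 0.134, and with the window cut to 20 kb (0.04, adjusted p = 0.707).

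The other 6 sums did not pass the test. The receptor gene Fgfr1 had a mean of 1132 ± 13.5 in control and 1219 ± 90.4 in paused libraries over 20 peaks, and Fgfr2 775 ± 39.5 and 770.2 ± 71.1 over 21 (SD, n = 4). Their log2 changes were 0.10 (SE 0.05) and -0.01 (SE 0.07). Spry4 went from 665 ± 47.1 to 734 ± 25.7 and the Erk phosphatase gene Dusp4 from 405 ± 10.5 to 447 ± 46.7 (SD, n = 4), with log2 changes of 0.14 (SE 0.06, limma adjusted p = 0.0845) and 0.14 (SE 0.08, adjusted p = 0.186). Etv4 went from 701 ± 65.0 to 769 ± 24.5 and Etv5 from 1612 ± 49.5 to 1655 ± 64.4 (SD, n = 4), with log2 changes of 0.14 (SE 0.07) and 0.04 (SE 0.05). In these 6 genes the groups overlapped, and in 4 of them, Fgfr2, Dusp4, Etv4 and Etv5, the median change of the peaks was below 0.05.

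The Etv5 sum changed sign with the scaling and was called lower after the loess correction (log2 change -0.13, limma adjusted p = 0.0423). Spry4 was called without control replicate 2 (0.19, adjusted p = 0.0362) and with the window cut to 20 kb (0.22, adjusted p = 0.0194). Etv4 was called without control replicate 1 (0.20, adjusted p = 0.0312) and with the window of 20 kb (0.22, adjusted p = 0.0304). Under TMM scaling 9.40% of all genes were called (6.85% higher) and after loess correction 9.34% (4.99% higher), and under each of them 2 of the 10 genes were.

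**Figure D2:**
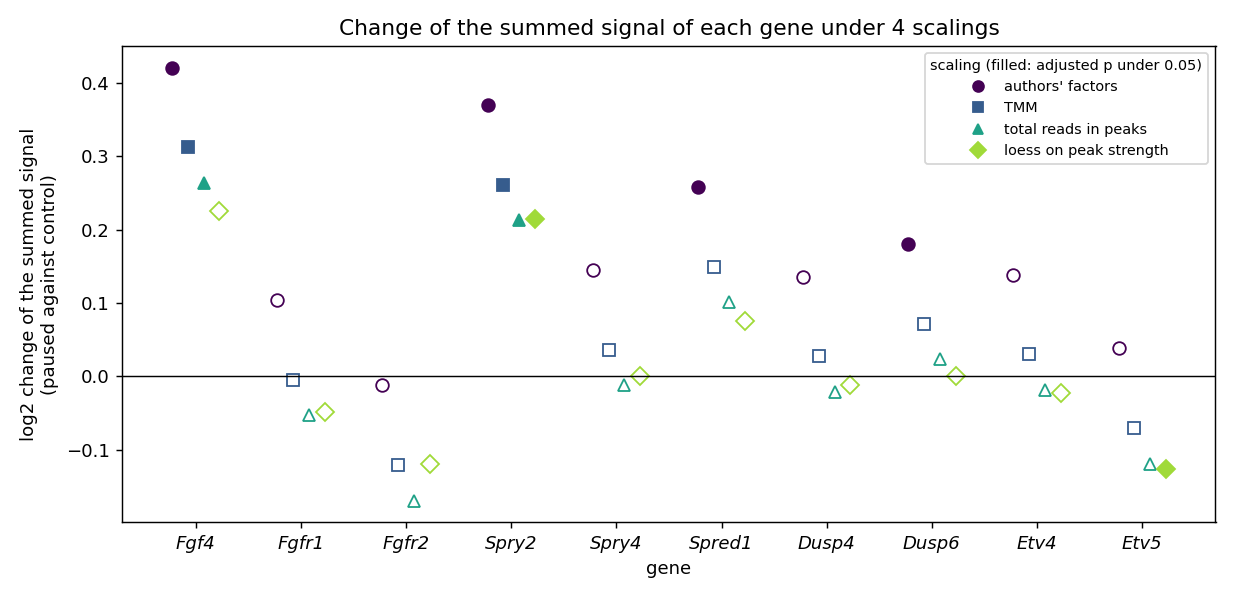
Log2 change of the summed signal (paused against control) of the 10 genes under 4 scalings of the libraries; filled symbols have a limma adjusted p under 0.05. Spry2 is filled under all 4 scalings and Fgf4 under 3, while Spred1 and Dusp6 are filled only with the authors' factors.

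The second comparison took the peaks one by one, from the limma fit of log2(value + 1) over the 127402 peaks that averaged 10 scaled reads or more. Of the 130 own peaks, 125 passed that filter and 5 did not (1 each of Fgfr1, Spry2 and Etv4, and 2 of Etv5). In paused cells 12 were called higher and 3 lower, against 13.9% of all tested peaks (11.0% higher and 2.91% lower), so that the count lies near the background. The median log2 change was 0.09, beside 0.10 over all tested peaks. In 17 of the 125 peaks the control and paused values did not overlap, 13 higher and 4 lower, against 17.4% of all tested peaks (13.0% and 4.36%). After TMM scaling 10 member peaks were called, 7 of them higher, beside 10.0% of all peaks (5.77% higher); after loess correction 6 were, 3 of them higher, beside 8.60% (5.10% higher). An FDR under 0.05 was listed for 13 of the 125 peaks in the authors' deposited table, 2 of them lower in paused cells, beside 11.0% of all its peaks.

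**Figure D3:**
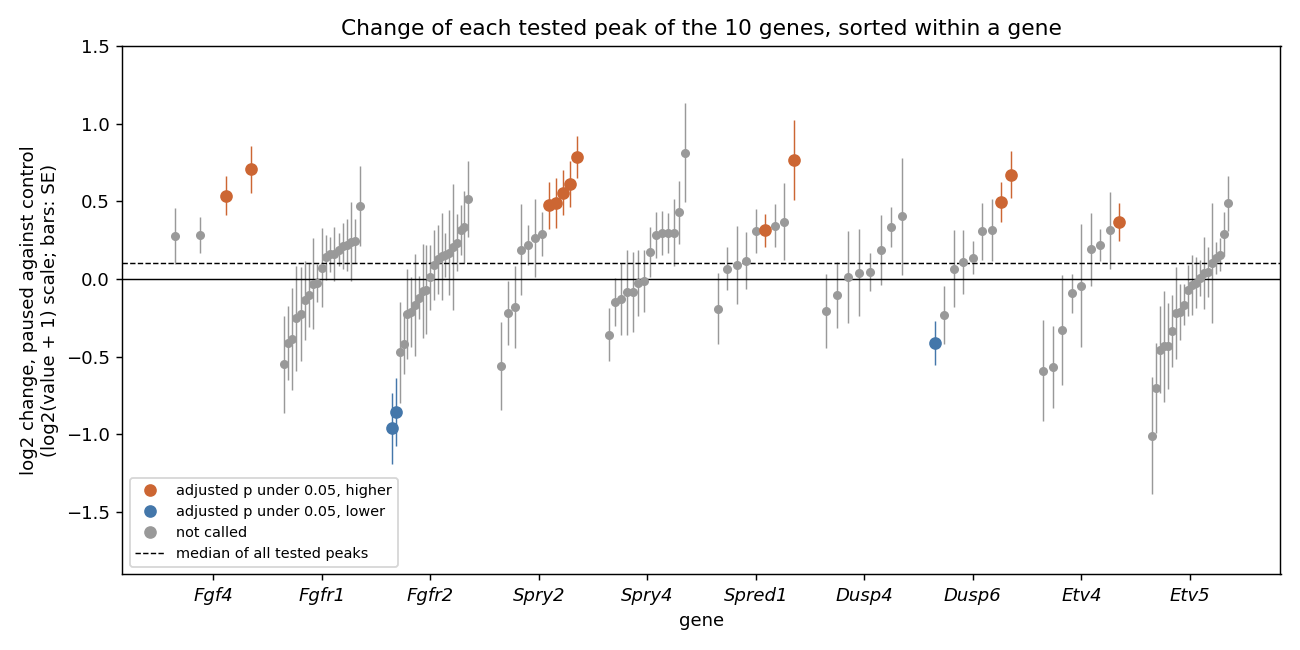
Log2 change with its SE for each of the 125 tested own peaks, sorted within each gene; coloured points have a limma adjusted p under 0.05 and the dashed line is the median of all tested peaks. The 12 called rises lie in Fgf4, Spry2, Spred1, Dusp6 and Etv4, and the 3 called falls in Fgfr2 and Dusp6.

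The calls were spread unevenly over the genes, beside a share of 13.9% called among all tested peaks. Peaks of a gene are not independent, and how unevenly calls fall at other genes with as many peaks was not computed. Spry2 had 5 called peaks of 12 tested, Dusp6 had 3 of 9, Fgf4 had 2 of 4, Spred1 had 2 of 9, Fgfr2 had 2 of 21 and Etv4 had 1 of 9. Fgfr1, Spry4, Dusp4 and Etv5 had 0 called peaks of 19, 14, 8 and 20 tested; at an unadjusted p under 0.05 in limma they had 0, 5, 1 and 4, beside 28.7% of all peaks. In edgeR with TMM scaling they had 0, 0, 0 and 2 calls, beside 12.7% of all peaks, and in DESeq2 0 at each, beside 4.55%. Among own peaks at or above the median strength of all tested peaks (34.4 scaled reads), 11 of 64 were called higher and 1 lower, beside 16.9% and 1.86% of all peaks of that strength. Among the weaker own peaks, 1 of 61 was called higher and 2 lower, beside 5.03% and 3.95% of all such peaks.

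The strongest own peak within 1 kb of the start of each gene, or of either end where the strand was not given, came next. For Fgfr1, Spry4, Dusp4 and Etv4 no strand was given, so that their peak may lie at the end far from the start. At Spry4 a stronger peak, 174 bp from the other end (mean 227.5 over all 8 libraries), was counted to Arhgap26 and left out here. Of these 10 peaks, 8 were among the strongest 10% of all tested peaks. Peaks share one width, but their levels were not corrected for differences in sequence, such as G and C content. The order of the means over all 8 libraries is therefore one of signal only: Etv5, Dusp6, Spred1, Etv4, Fgfr1, Fgf4, Dusp4, Fgfr2, Spry2 and Spry4. The Etv5 peak stood at 434 ± 47.0 scaled reads in control and 476 ± 32.3 in paused libraries, and the Dusp6 peak at 311 ± 35.3 and 342 ± 36.3 (SD, n = 4). The neighbours Spred1 (266 ± 11.4 in control) and Etv4 (275 ± 22.9) lay within 1 SD of each other, while others, such as Etv5 and Dusp6, did not.

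Of the 10 start peaks, 1 was called, that of Spred1, beside 16.9% called higher and 1.86% lower of all peaks at or above the median strength. All 10 had a change above 0, from 0.14 to 0.43, with a median of 0.25. The share of all peaks of such strength with a change above 0 was not computed. After loess correction the changes at Fgfr1, Fgfr2, Dusp6 and Etv5 were below 0 (-0.018, -0.052, -0.071 and -0.073). The others stayed above 0, from 0.011 at Etv4 to 0.32 at Spry4. On the same scale all tested peaks shift by 0.10, and those at or above the median strength by 0.17. The change of 0.43 was at Spry4, at an end that may not be the start. The Spred1 peak, 964 bp before the start (chromosome 2, 117120007 to 117120207), was at 272, 248, 271 and 270.4 in control and 286, 306, 380.1 and 356 in paused libraries (log2 change 0.31, SE 0.11, limma adjusted p = 0.0455). The groups did not overlap, but the call was lost in 12 of 18 alternatives, among them each of the other scalings (adjusted p = 0.203 to 0.525) and the fits without any 1 of the 8 libraries other than paused replicate 1 (adjusted p = 0.0525 to 0.15).

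The Fgf4 start peak whose sequence is given above was at 219, 253, 176 and 207 in control and 272, 268, 236 and 259 in paused libraries. The lowest paused value lay below the highest control value, that of control replicate 2. The log2 change was 0.28 (SE 0.11, limma adjusted p = 0.0902), and it passed without control replicate 2 (0.37, adjusted p = 0.0307). The Dusp4 peak, 136 bp outside the gene, averaged 143 ± 24.3 in control and 179.8 ± 21.6 in paused libraries (SD, n = 4), a log2 change of 0.33 (SE 0.13, limma adjusted p = 0.07). It passed without control replicate 2 (0.44, adjusted p = 0.0195), without paused replicate 1 (0.40, adjusted p = 0.044) and where only peaks averaging 50 reads or more were tested (0.33, adjusted p = 0.0457). The changes at the start peaks of Dusp6 and Etv5, both 0.14, were 0.04 above the median of all peaks and below that of peaks at or above the median strength (0.17). They turned negative with scaling to the total reads and after loess correction.

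At Fgf4 the rises lay towards and beyond the 3′ end of the gene. The peak inside the gene (chromosome 7, 144864373 to 144864573), 3087 bp after the start and 772 bp before the end, was at 103, 125, 110.1 and 120.5 in control and 151, 200.3, 139.6 and 182 in paused libraries. All paused values lay above the controls (log2 change 0.54, SE 0.13, limma adjusted p = 0.00381). A well known enhancer of Fgf4, bound by Oct4 and Sox2, lies in the last exon of the gene; whether this peak covers it was not analysed here. After loess correction the change was 0.33 (adjusted p = 0.0848).

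The next Fgf4 peak, 2196 bp beyond the end (chromosome 7, 144867341 to 144867541), was at 56.4, 63.3, 45.7 and 52.9 in control and 85.4, 104, 90.0 and 78.5 in paused libraries. The groups were well apart (log2 change 0.71, SE 0.15, limma adjusted p = 0.00136). This call held in all 18 alternatives, with adjusted p up to 0.0428. The last own peak, 8126 bp beyond the end, changed by 0.28 (SE 0.18, adjusted p = 0.325), with overlapping groups.

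Fgf4 lies between Fgf3 and Fgf15, and 15 further peaks within 50 kb of it were nearer to one of these genes or to LTO1. Of these, 3 were called higher, all nearer to Fgf3, the gene of another FGF ligand, beside 11.0% of all tested peaks. The largest change was at a weak peak 27304 bp before Fgf4 (chromosome 7, 144833982 to 144834182), with 14.2, 13.1, 6.77 and 10.3 in control and 26.5, 25.2, 18.6 and 25.8 in paused libraries. The paused values were all higher (log2 change 1.08, SE 0.29, limma adjusted p = 0.0101). The called peaks 39246 and 9851 bp before Fgf4 had overlapping groups. They lost their call under TMM, total-read and loess scaling in limma and in DESeq2 (adjusted p = 0.0701 to 0.209). At the 8 peaks nearer to Fgf15 or LTO1 the changes ran from -0.44 to 0.39 and did not pass the test.

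At Spry2 the called peaks lay both around the gene and in a cluster far beyond its end. The strongest call was 29581 bp beyond the end (chromosome 14, 105862266 to 105862466), at 73.3, 63.3, 67.7 and 57.3 in control and 104, 114, 113 and 122 in paused libraries. The lowest paused value was well above the highest control value, and the mean was 73.0% higher (log2 change 0.78, SE 0.14, limma adjusted p = 0.00014). The call held in all 18 alternatives, with adjusted p up to 0.0064.

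Its neighbours on either side moved the same way. The peak 32341 bp beyond the end (105859506 to 105859706) averaged 91.1 ± 19.2 in control and 133 ± 17.0 in paused libraries (SD, n = 4), a log2 change of 0.56 (SE 0.15, limma adjusted p = 0.00802), with no overlap. That 26242 bp beyond the end (105865605 to 105865805) averaged 52.9 ± 7.95 in control and 74.8 ± 11.4 in paused libraries (SD, n = 4), a log2 change of 0.49 (SE 0.16, limma adjusted p = 0.0332), with paused replicate 2 at 63.1 just below control replicate 4 at 63.2. The peak 32341 bp away lost its call without control replicate 3 (0.39, adjusted p = 0.0651), with scaling to the total reads (0.40, adjusted p = 0.0732), after loess correction (0.36, adjusted p = 0.115) and in DESeq2 (0.42, adjusted p = 0.127). The one 26242 bp away lost it without control replicate 1 or 3 or paused replicate 3 or 4 (0.41 to 0.47, adjusted p = 0.0803 to 0.109), under the other 3 scalings in limma, in edgeR with TMM and in DESeq2 (0.33 to 0.40, adjusted p = 0.0704 to 0.26). The strongest Spry2 peak, further out at 40371 bp, changed by 0.22 (SE 0.13, adjusted p = 0.25).

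Close to Spry2, a peak 4147 bp before the start (105900866 to 105901066) was at 51.5, 69.3, 71.1 and 57.3 in control and 83.1, 106, 97.8 and 94.9 in paused libraries. The groups did not overlap (log2 change 0.61, SE 0.15, limma adjusted p = 0.00398), and the call was lost after loess correction (0.44, adjusted p = 0.0558) and in DESeq2 (0.54, adjusted p = 0.0611). A peak inside the gene (105893356 to 105893556) changed by 0.47 (SE 0.15, adjusted p = 0.0311) and lost its call in 11 of 18 alternatives. These included the fits without control replicate 1, 2 or 4 or paused replicate 2, 3 or 4 (adjusted p = 0.0601 to 0.0867), and the other 3 scalings in limma, edgeR with TMM and DESeq2 (0.31 to 0.37, adjusted p = 0.0879 to 0.283). The start peak, 882 bp before the gene, averaged 81.6 ± 9.20 in control and 100.4 ± 15.8 in paused libraries (SD, n = 4), a log2 change of 0.29 (SE 0.14, limma adjusted p = 0.174). The lowest change among the Spry2 peaks was -0.56 (SE 0.29, adjusted p = 0.189), at a weak peak between both groups of rises.

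At Spry4, the gene of another Sprouty protein, 0 of 14 own peaks were called. These peaks and the Spry4 sum leave out a stronger peak, with a mean of 227.5 scaled reads against at most 128.4 at the own peaks. That peak, 174 bp from an end of Spry4 (chromosome 18, 38601421 to 38601621), lay inside the neighbouring gene Arhgap26 and was therefore counted as nearer to it. Whether that end is the start of Spry4 is not known here, since no strand was given. The peak is described by choice after its values were seen. It was at 199.8, 207, 199.8 and 172 in control and 269.9, 244, 231 and 296 in paused libraries. All paused values lay above the controls (log2 change 0.42, SE 0.11, limma adjusted p = 0.0104). The call was lost under TMM, total-read and loess scaling and in DESeq2 (adjusted p = 0.0675 to 0.22) and without control replicate 4 or paused replicate 4 (adjusted p = 0.0506 and 0.0679). A further called peak inside Arhgap26, 34759 bp from Spry4, changed by 0.44 (SE 0.12, adjusted p = 0.011) and lost its call without control replicate 3 or paused replicate 4 (adjusted p = 0.0559 and 0.0613), and under the other 3 scalings in limma, in edgeR with TMM and in DESeq2 (0.24 to 0.33, adjusted p = 0.0577 to 0.192).

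Dusp6 was the only gene of the 10 with calls in both directions. A peak 2019 bp beyond its end (chromosome 10, 99269408 to 99269608) was at 89.5, 88.4, 96.5 and 80.8 in control and 72.7, 72.5, 62.1 and 59.8 in paused libraries. The paused values were all lower (log2 change -0.41, SE 0.14, limma adjusted p = 0.0473). The fall was larger under other scalings, with adjusted p = 0.0159 after TMM scaling and 0.00751 after loess correction. It lost its call in DESeq2 (adjusted p = 0.0666) and without control replicate 1, 2 or 3 or paused replicate 2, 3 or 4 (-0.45 to -0.36, adjusted p = 0.0515 to 0.136).

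The Dusp6 rises lay further out. The peak 25884 bp beyond the end (99293273 to 99293473) was at 48.0, 63.3, 50.8 and 51.4 in control and 73.8, 83.6, 90.0 and 94.9 in paused libraries. The groups did not overlap (log2 change 0.67, SE 0.15, limma adjusted p = 0.00218), and the call held in all 18 alternatives, with adjusted p up to 0.0433. The peak 31338 bp beyond the end (99298727 to 99298927) averaged 98.9 ± 2.17 in control and 141 ± 22.6 in paused libraries (SD, n = 4), a log2 change of 0.50 (SE 0.13, limma adjusted p = 0.00833). Its call was lost with scaling to the total reads, after loess correction and in DESeq2 (adjusted p = 0.0741 to 0.131).

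**Figure D4:**
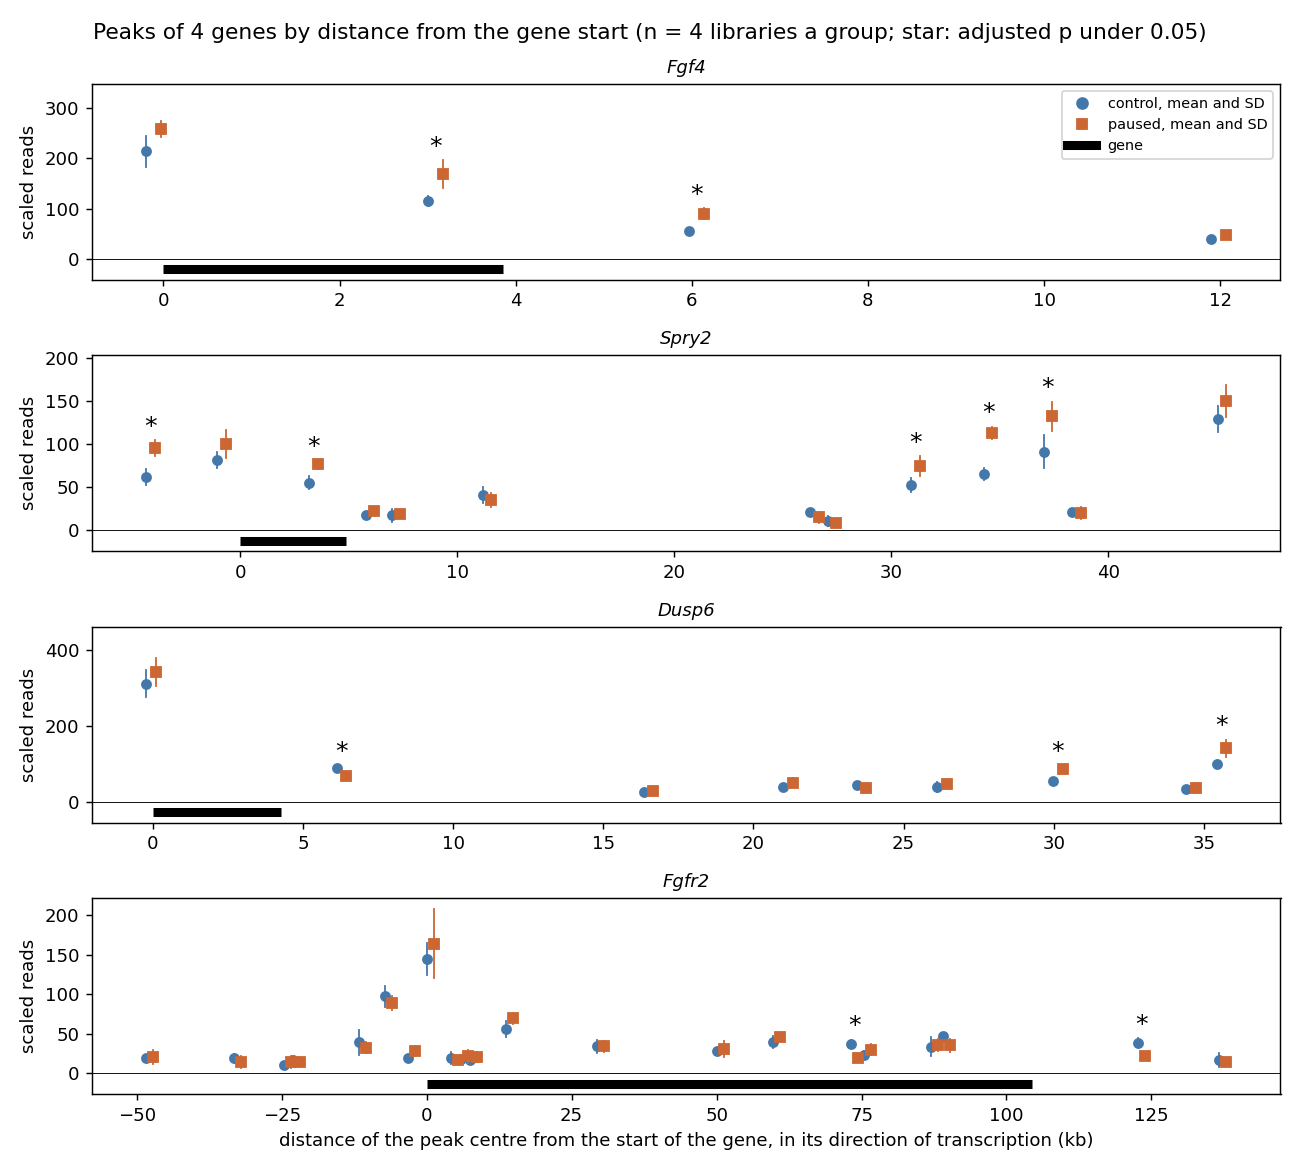
Scaled reads (mean and SD, n = 4 a group, symbols of the groups set slightly apart) of each own peak of Fgf4, Spry2, Dusp6 and Fgfr2 by the distance of its centre from the gene start in kb; the black bar is the gene and a star marks a limma adjusted p under 0.05. The starred rises of Spry2 lie near the gene and far beyond its end, those of Dusp6 only far beyond it, and the starred falls of Fgfr2 at weak peaks far from its start.

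At Fgfr2, the receptor gene, both called peaks were weak and lower in paused cells. The peak inside the gene (chromosome 7, 130192946 to 130193146), 73762 bp after the start, was at 34.6, 38.2, 44.0 and 30.9 in control and 19.6, 20.5, 21.7 and 12.9 in paused libraries. The paused mean was 0.506 times the control mean, with no overlap (log2 change -0.96, SE 0.23, limma adjusted p = 0.0038). The peak 18856 bp beyond the end of the gene (130143495 to 130143695) was at 32.5, 35.8, 42.3 and 44.1 in control and 18.5, 15.8, 24.8 and 25.8 in paused libraries. All paused values were again below the controls (log2 change -0.85, SE 0.22, adjusted p = 0.00731). Both falls were called in all 17 alternatives that could be run on them, with adjusted p up to 0.0234 and 0.0315. The start peak of Fgfr2 averaged 145 ± 20.7 in control and 164 ± 43.8 in paused libraries (SD, n = 4), a log2 change of 0.15 (SE 0.14, limma adjusted p = 0.509).

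Fgfr1, the receptor gene with the stronger start peak, had no called peak. That peak averaged 233 ± 20.7 in control and 265 ± 14.5 in paused libraries (SD, n = 4), a log2 change of 0.19 (SE 0.11, limma adjusted p = 0.246). The changes of its 19 tested peaks ran from -0.55 to 0.47, with a median of 0.07.

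At Spred1, besides the start peak, a weak peak 28100 bp before the gene (chromosome 2, 117092871 to 117093071) was called higher, with 17.3 ± 5.49 in control and 29.4 ± 5.60 in paused libraries (SD, n = 4), a log2 change of 0.77 (SE 0.26, limma adjusted p = 0.0392). Paused replicate 2 (23.66) lay just below control replicate 3 (23.71), and the call was lost in 9 of 17 alternatives, including the fits without control replicate 1 or 2 or paused replicate 1, 3 or 4 (0.57 to 0.82, adjusted p = 0.0603 to 0.143), the other 3 scalings in limma and DESeq2 (adjusted p = 0.0651 to 0.19). At Etv4, a peak inside the gene (chromosome 11, 101772582 to 101772782) was at 234, 154, 152 and 181 in control and 224, 249, 216 and 231 in paused libraries. Control replicate 1 lay within the paused range (log2 change 0.37, SE 0.12, adjusted p = 0.0381). The call was lost in 12 of 18 alternatives, among them the fits without control replicate 2, 3 or 4 or paused replicate 1, 2 or 4 (0.30 to 0.38, adjusted p = 0.0571 to 0.144), the other 3 scalings in limma, edgeR and DESeq2 (0.16 to 0.29, adjusted p = 0.0823 to 0.479). At Etv5, the gene with the most own peaks, the lowest change was -1.01 (SE 0.38, adjusted p = 0.0649), at a very weak peak 4061 bp beyond the end with 14.9 ± 3.36 in control and 7.28 ± 3.34 in paused libraries (SD, n = 4). It was called without paused replicate 1 (-1.24, adjusted p = 0.0391), with scaling to the total reads (-1.15, adjusted p = 0.0458) and in edgeR with TMM or the deposited factors (-1.19 and -1.08, adjusted p = 0.0169 and 0.025).

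Because the scaling of the libraries moves all peaks together, each called peak was also expressed as a share of its gene's summed signal within the same library, a measure that no scaling factor enters. The peaks had been chosen for their change, so that these shares are a description with no test. Of the 15 called peaks, 7 had shares that did not overlap between the groups. How often shares lie apart over all peaks was not computed, so that this count has no background. Shares were also taken for the start peaks, strongest peaks and peaks of lowest change that were not called. Among these the groups lay apart at the Spry4 peak of lowest change (8.10% ± 1.11 in control, 5.67% ± 0.677 in paused libraries, SD, n = 4). At the rest they overlapped. The Spry2 peak 29581 bp beyond the gene held 9.84% ± 1.33 of the Spry2 signal in control and 13.1% ± 0.570 in paused libraries (SD, n = 4). The Fgf4 peak 2196 bp beyond the gene held 12.9% ± 0.428 and 15.9% ± 1.48 (SD, n = 4).

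At Dusp6 all 3 called peaks changed their share. It fell from 12.1% ± 0.636 to 8.09% ± 1.43 at the peak 2019 bp beyond the gene (SD, n = 4). It was 7.28% ± 0.972 against 10.3% ± 0.725 at 25884 bp and 13.5% ± 0.433 against 16.9% ± 1.22 at 31338 bp (SD, n = 4). The Fgfr2 peaks held 4.80% ± 0.983 and 5.01% ± 0.850 in control, and 2.43% ± 0.491 and 2.74% ± 0.540 in paused libraries (SD, n = 4). The other 8 shares overlapped, among them that of the Spred1 start peak, with 36.7% ± 2.46 and 38.2% ± 2.80 (SD, n = 4).

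**Figure D5:**
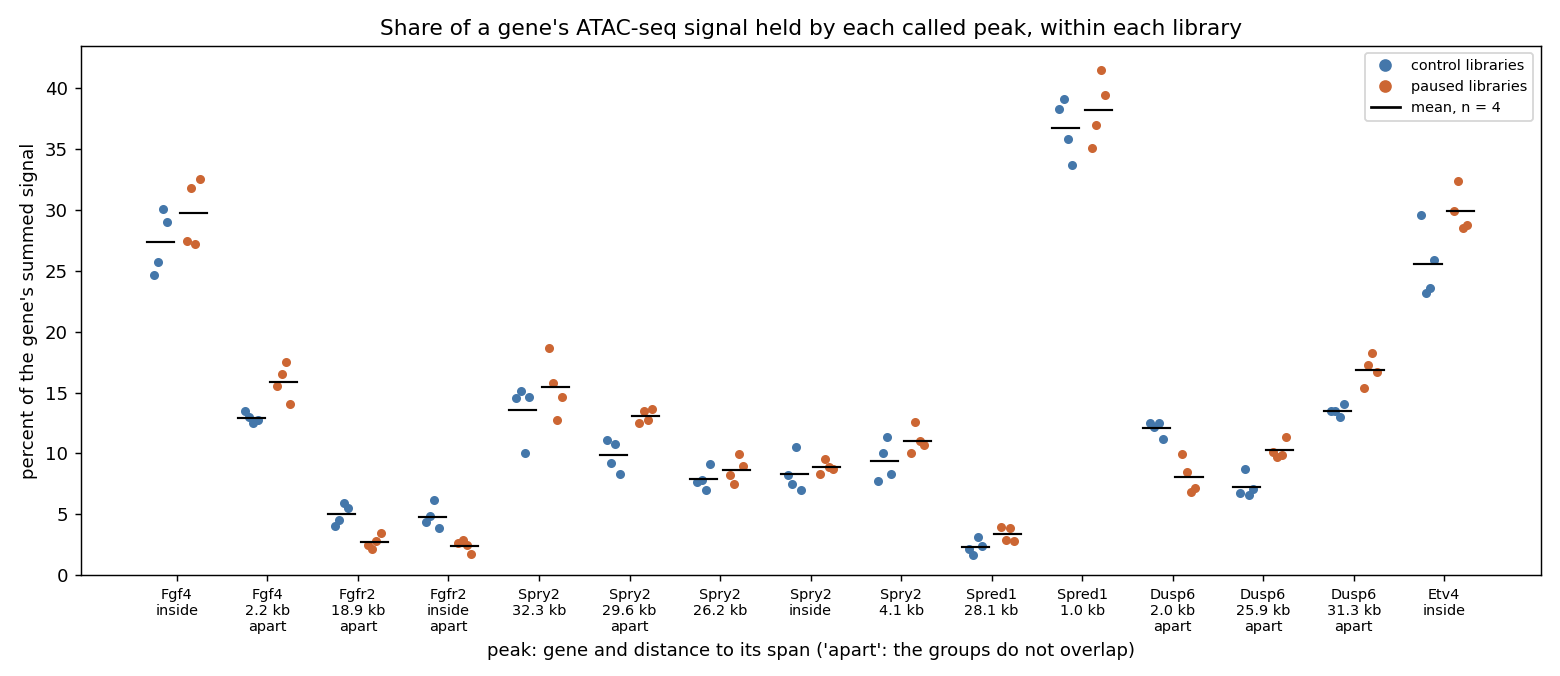
Percent of a gene's summed signal held by each of the 15 called peaks, within each library (points are libraries, lines are means, n = 4 a group). The groups are apart for 7 peaks: 1 of Fgf4, 2 of Fgfr2, 1 of Spry2 and 3 of Dusp6. The peaks were chosen for their change, and no background over all peaks was computed.

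The wider pathway was described through 52 other genes of FGF and Erk signalling, of which 50 had tested own peaks. Of their 439 tested peaks, 48 were called higher and 16 lower, 14.6% in all, beside 13.9% of all tested peaks; the median log2 change was 0.09, beside 0.10. By class, 19 of 107 peaks of other feedback inhibitors were called higher and 1 lower (median 0.15), and 18 and 8 of 207 for adaptors and kinases (median 0.08). The counts were 7 and 4 of 77 for target transcription factors (median 0.13) and 4 and 3 of 48 for ligands and receptors (median 0.03). The balance turned with the scaling, to 21 higher and 26 lower with TMM and to 18 and 28 with total reads. Without control replicate 1 the pathway count was 39, without control replicate 4 it was 42 and without paused replicate 4 it was 34. Summed over each gene's peaks, 22 of the 50 genes were called higher and 0 lower, beside 29.8% and 1.40% of all genes. Higher sums were found for 8 of 12 feedback inhibitors, 9 of 20 adaptors and kinases, 4 of 11 target transcription factors and 1 of 7 ligands and receptors. The list of feedback inhibitors held Spry1, Spry3, Spred2, Spred3, Il17rd, Dusp1, Dusp5, Dusp7, Dusp9, Nf1, Rasa1, Cbl and Rasal2. Whether Erk induces each of these genes was not tested. These counts of sums were made with the authors' factors. Of all genes, 6.85% were called higher after TMM scaling and 4.99% after loess correction.

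Peaks with the smallest adjusted p in each class are described next. Among feedback inhibitors both lay near Dusp1, the gene of an inducible phosphatase of the mitogen-activated protein kinases. The one 10652 bp from the gene (chromosome 17, 26494839 to 26495039) was at 28.4, 17.9, 25.4 and 19.1 in control and 51.9, 75.7, 45.0 and 50.4 in paused libraries. All paused values were higher (log2 change 1.26, SE 0.21, limma adjusted p = 6.21e-05). The one 2534 bp away (26502957 to 26503157) averaged 127 ± 17.0 in control and 202.5 ± 13.9 in paused libraries (SD, n = 4), a log2 change of 0.67 (SE 0.12, limma adjusted p = 0.000184).

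Among adaptors and kinases, a peak inside Ksr1, the gene of a scaffold of the Raf, Mek and Erk kinases (chromosome 11, 79093456 to 79093656), averaged 38.3 ± 6.58 in control and 82.3 ± 9.31 in paused libraries (SD, n = 4), a log2 change of 1.09 (SE 0.16, limma adjusted p = 1.69e-05). Among target transcription factors a peak 18675 bp from Ets2 (chromosome 16, 95739624 to 95739824) was lower, at 55.0, 66.9, 47.4 and 60.3 in control and 27.7, 28.4, 27.9 and 23.4 in paused libraries. The groups were far apart (log2 change -1.06, SE 0.18, limma adjusted p = 0.000131). The other was a rise of 0.77 (SE 0.12, adjusted p = 3.18e-05) 20553 bp from Myc (chromosome 15, 62010814 to 62011014).

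Among ligands and receptors the 2 peaks were a fall of -0.94 (SE 0.25, limma adjusted p = 0.009) 3083 bp from Fgfr3 (chromosome 5, 33718541 to 33718741) and the Fgf3 peak described with Fgf4. The Fgfr3 peak was at 37.7, 38.2, 39.0 and 33.8 in control and 26.5, 20.5, 9.31 and 24.6 in paused libraries, with no overlap and with paused replicate 3 the lowest. The 6 of these 7 peaks other than that of Fgf3 were also called after TMM scaling, after loess correction and in DESeq2; the Fgf3 peak was not called in DESeq2 (adjusted p = 0.119).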

How the data were processed

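The 8 ATAC-seq libraries were read in pairs of 150 bp, per the labels' protocols. The submitters' processing notes name FastQC, Trim Galore, Bowtie2 2.4.1, MACS3 3.0.3, DiffBind 3.16.0 and build mm10; read filters and the handling of the Tn5 offset are not given in the sources used here. The deposited values of each library are a signal, namely the reads in a peak over a constant of that library, rounded to 2 decimals. This was found from the values, since 100% of them in each column were whole multiples of 1 step (tolerance 0.006). The authors also deposited log2 group means and folds, and p-values with FDR, used only where their table is named; 0 per-sample columns were left unused. Their FDR is under 0.05 for 14771 peaks.

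The main test was limma-trend (limma 3.58.1, R 4.3.3) on log2(value + 1) without covariates, for peaks or gene sums with a mean of at least 10, which understates the change of weak peaks. Recovered reads were tested with edgeR 4.0.16 (quasi-likelihood; 16142 peaks called with TMM, 21045 with the deposited factors) and DESeq2 1.42.0. Other alternatives are in the closing section. The steps were tested on simulated data. A peak with 0 reads in a library allows up to 3 reads, from 1.04 to 5.08 scaled reads, and counting errors cover sampling of reads only. Genes came from a table of GRCm38.p6 with 21887 protein-coding genes, which gives spans without exons; strands came from the promoter table.

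Named for each gene were the strongest own peak within 1 kb of the start (or of either end without a strand), the strongest own peak, up to 3 called peaks with the smallest adjusted p, and the peak with the lowest change; for the pathway, 2 peaks per class, of which 1 is not reported here. Called peaks of the member genes outside this rule were chosen after their values were seen. The members, the gene lists and the tests were chosen with earlier results of these data known. Replicate numbers come from the titles and are not said to mark a shared culture or day.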

Additional observations from a re-analysis of the deposited data

Results flagged for a closer look

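In 84 groups of 4 values (32 named peaks and 10 gene sums in control and in paused libraries), 5 had 1 library far from the other 3, with a gap to the nearest beyond what Dixon's test allows at its 95% level; chance gives about 1 in 20. The Spred1 start peak was 248.4 in control replicate 2, with the other controls from 270.4 to 272.4. The Spry4 peak 9946 bp from the gene was 116.5 in paused replicate 1, with the others from 148.8 to 151.4. The Fgfr2 sum was 716 in control replicate 3, with the others from 791 to 798. The Spry2 peak with the lowest change was 26.45 in control replicate 4, with the others from 19.1 to 20.3. The Fgfr1 peak with the lowest change was 15.5 in paused replicate 3, with the others from 9.37 to 10.4.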

How the results depend on the processing

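The peaks called at an adjusted p under 0.05 numbered 17660 over all peaks, 15 at the 10 genes, 64 in the pathway list and 13 among the 32 named peaks; 4 gene sums were called. With loess correction these counts were 10956, 6, 32, 6 and 2, and with DESeq2 5794, 6, 21 and 6. Only peaks with a mean of 50 reads or more gave 10487 over all peaks and 42 in the pathway list, where fewer peaks were tested. A window of 20 kb gave 9 peaks at the 10 genes, since fewer peaks fell in it. TMM and total-read scaling each gave 2 gene sums; where no construction is named, the cause was not tested. The split into higher and lower moved with the scaling: over all peaks from 13958 and 3702 to 7352 and 5451 with TMM and 5743 and 6827 with total reads, and in the pathway list from 48 and 16 to 21 and 26 and to 18 and 28. Leaving out 1 library gave 11567 to 15806 over all peaks, 9 to 16 at the 10 genes (9 without paused replicate 4), 34 to 60 in the pathway list and 3 to 4 gene sums.

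Signs reversed under scaling as follows, all short of the threshold except Etv5 with loess. The sums became -0.0049 (TMM), -0.053 (total reads) and -0.049 (loess) for Fgfr1, -0.071, -0.12 and -0.13 in the same order for Etv5, -0.012 (total) for Spry4, -0.021 (total) and -0.012 (loess) for Dusp4, and -0.018 and -0.023 for Etv4. The start peaks became -0.018 (loess) for Fgfr1, -0.0035 (total) and -0.052 (loess) for Fgfr2, -0.019 and -0.071 for Dusp6, and -0.021 and -0.073 for Etv5. Leaving out 1 library gave -0.075 to 0.020 for the Fgfr2 sum and -0.0017 to 0.32 for its start peak. Of 786 single values under alternatives, 650 kept their direction and side of the threshold, 97 lost a call, 15 gained one and 24 reversed.

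With the replicate number as a block, 21994 peaks were called over all peaks, 18 at the 10 genes, 84 in the pathway list and 5 gene sums. The labels give same-numbered libraries a shared number and nothing else. The deviations of such libraries correlated at 0.079, 0.036, 0.13 and 0.039, and 3 of 4 numbers correlated best with their own. Whether they shared a culture or a day was not tested. The weak peaks are limited by depth, with a median of 18 to 29 reads in 7 libraries.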
